A study of Mus musculus with 3 samples.

Results

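Gene expression in mouse long-term haematopoietic stem cells was compared between a culture given 2.5 Gy of gamma radiation and an unirradiated culture, 2 hours after exposure. The genes described were those with 1 gene symbol and a deposited value that reached a level minimum on both arrays (23.4 on the linear scale), which kept 10854 of 23185 named genes. The minimum lies at about the middle of the values on each array. At its edge, Sbpl was just inside, with 4.5503 on the log2 scale on the 2.5 Gy array, and Chpf2 just outside, with 4.5499.

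The study holds 3 arrays, with 1 array each for 0, 0.02 and 2.5 Gy. All 3 samples were cells sorted from mouse bone marrow as Lin- ckit+ Sca+ Flk2- CD48- CD150+, which were left overnight in a serum-free medium (Stemspan SFEM), irradiated and lysed for RNA after 2 hours. No other agent and no genetic change is named for any of them, and the sources used here do not state the strain, the age or the number of animals. Since each dose had 1 array, no difference given here has a replicate check, no test was run, and every comparison is one between single arrays.

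Long-term haematopoietic stem cells sit at the top of the blood lineage, are mostly out of the cell cycle and can rebuild the blood system of an irradiated host. Ionising radiation breaks DNA and sets off ATM signalling, which stabilises p53 and can also release NF-kB from its inhibitors. Within hours of a stress, transcripts of transcription factors, inhibitors and RNA-decay proteins with short lives are often the first to move, and in stem cells a low rate of protein synthesis and of mitochondrial respiration is known to matter for their upkeep.

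Values below are deposited log2 values in the order unirradiated, 0.02 Gy and 2.5 Gy, and a difference is the 2.5 Gy value minus the unirradiated value on the log2 scale, so that 1 is 2-fold. The 0.02 Gy array is given as a further reading. A list median given for 0.02 Gy is that of the 0.02 Gy value minus the unirradiated value, over the same genes. The comparison of each irradiated array with the unirradiated array uses the same unirradiated values, so a low unirradiated value raises both differences.

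Genes of the sort were checked first. Kit, the receptor for stem cell factor, was at 8.58, 8.78 and 8.50, and Slamf1 (CD150) had 5.24, 4.75 and 4.84. Of the markers selected against, Cd48 was under the minimum on all 3 arrays (3.62, 3.31 and 3.40) and Flt3 (Flk2) just above it (4.601, 4.95 and 4.93). Of 22 long-term stem cell markers matched, 18 reached the minimum on both arrays. So did 13 of 18 megakaryocyte and platelet markers, among them Pf4, platelet factor 4, at 9.05, 9.26 and 9.51. Among 17 matched T and NK cell markers 5 did, and among 12 matched B lymphoid markers 2 did. Of the dendritic cell markers 10 of 12 did, and of the mature myeloid markers 10 of 19. Reaching the minimum therefore did not by itself set stem cell markers apart from those of other cell types. The array medians over all probe sets were 4.603, 4.535 and 4.555.

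**Figure D1:**
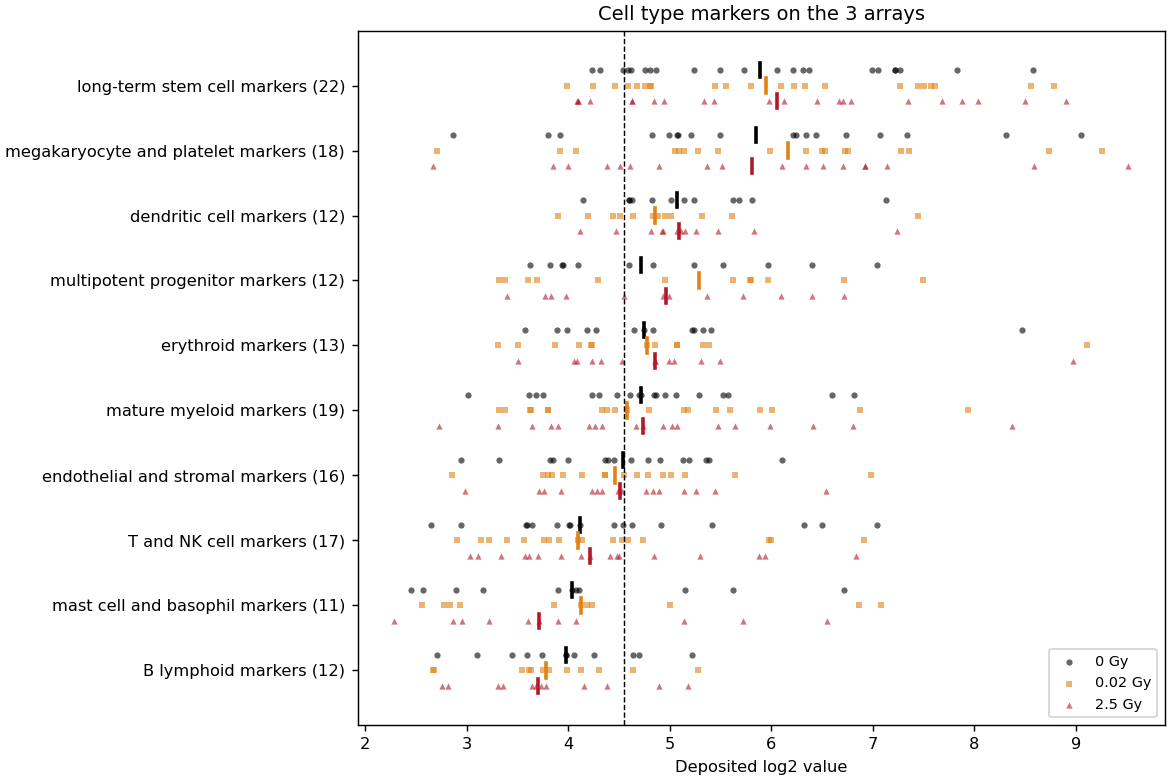
Deposited log2 values of every matched marker of 10 cell types on the 3 arrays (points), with the median of each list and array as a vertical bar and the level minimum as a dashed line; the number of matched markers stands beside each name. The medians of the B lymphoid, T and NK cell, mast cell and endothelial lists lie below the minimum on all 3 arrays. Those of the other lists, dendritic cell and mature myeloid markers included, lie above it.

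Of the 10854 genes, the 2.5 Gy array had 102 (0.94%) at least 2-fold higher and 40 (0.369%) at least 2-fold lower. At 1.5-fold, 613 (5.65%) were higher and 291 (2.68%) lower, and 5871 (54.1%) had a difference above 0. The median difference was 0.03, with -0.77 and 0.99 as the 1st and 99th percentiles. Counts for gene lists below stand against these shares of all genes. They, and the medians of lists, cover the genes of a list that reached the minimum on both arrays, called at level. The range after a list's median is that over 5 other treatments of the data: no level minimum, a higher minimum, quantile normalization, median centring and loess. The gene nearest the 2-fold line on the inside among higher genes outside the families described below was Tmem234 (1.004) and the nearest on the outside was Emd, which encodes emerin (0.997). Among lower genes, Fbxo5 was at -1.03 and Vsig2 just outside 2-fold. Over the same 10854 genes, the 0.02 Gy array had 108 (0.995%) at least 2-fold higher than the unirradiated array and 132 (1.22%) lower. At 1.5-fold these were 729 and 528. The minimum was not applied to the 0.02 Gy array, so genes could fall under it there. Counts of this size were thus not particular to 2.5 Gy.

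The excess of higher genes depended on which genes were counted. Of the 102 higher genes, 24 were predicted genes or belonged to families with near-identical copies, such as olfactory receptors, antigen receptor segments, microRNAs and histones, and so did 25 of the 40 lower genes. Outside these families, 78 genes were higher and 15 lower among 9218. After quantile normalization of the 3 arrays the counts over all genes were 82 higher and 55 lower, so that 59.9% of the genes past 2-fold were higher against 71.8% on the deposited values. After a loess correction of each array over level they were 81 and 52 (60.9% higher), after median centring 121 and 36 (77.1%), and with the families left out 83.9% of the genes past 2-fold were higher. The median difference also moved with level, from -0.02 in the lowest decile of genes to 0.15 in the highest decile, beside -0.05 and 0.17 for the 0.02 Gy array; its part in the result was not tested.

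**Figure D2:**
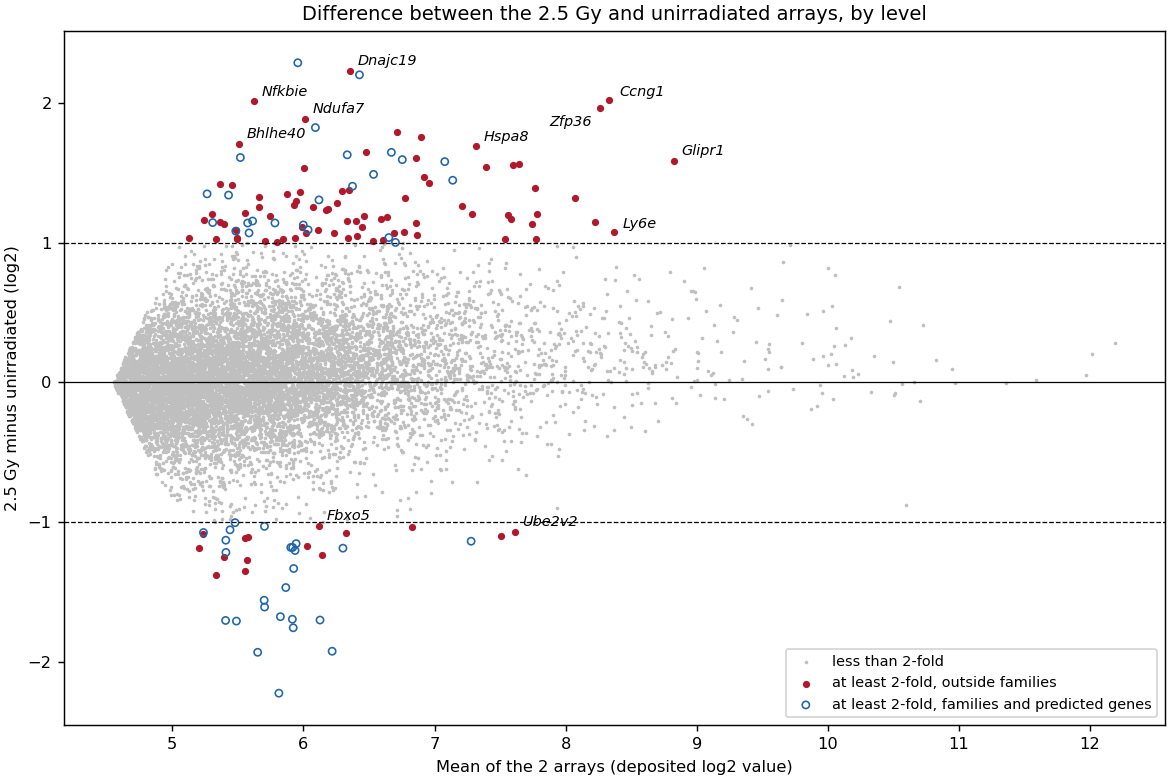
Each point is 1 of 10854 genes: the horizontal axis is the mean deposited log2 value of the unirradiated and 2.5 Gy arrays, and the vertical axis the 2.5 Gy value minus the unirradiated value (log2). Dashed lines mark 2-fold; filled points past them are the 78 higher and 15 lower genes outside families, open points the 24 higher and 25 lower family members and predicted genes, and the largest difference outside families is that of Dnajc19 (2.23).

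The gene with the largest difference outside the families encodes a mitochondrial protein. Dnajc19, a subunit of the motor that pulls proteins through the inner membrane into the mitochondrion, was at 5.24, 5.67 and 7.47, a difference of 2.23 (4.69-fold). Ndufa7, a subunit of respiratory complex I, was at 5.07, 5.69 and 6.96 (1.89), and Ndufa10, another subunit, at 5.82, 6.11 and 6.86 (1.04). For each of them the 0.02 Gy array lay between the others and nearer to the unirradiated one. Slc25a3, the phosphate carrier of the inner membrane, was at 6.68, 7.37 and 7.89 (1.20), and Mcu, the pore of the calcium uniporter, at 5.33, 5.49 and 6.36 (1.02); these last 2 were chosen after their values were seen.

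The complexes those genes belong to had medians far below these single genes. Of 32 complex I genes at level, 20 were above 0, 2 were 2-fold higher and the median was 0.06 (range -0.12 to 0.11), turning to -0.09 after loess and -0.12 after quantile normalization. Among these, Ndufb7 was at 6.95, 7.51 and 7.67 (0.72). For 25 genes of mitochondrial protein import the median was 0.20 (range 0.07 to 0.25), with Timm17a (6.75, 6.95 and 7.47) and Tomm70a (5.14, 5.24 and 5.82) next after Dnajc19. Respiratory complexes II to V had 24 of 30 genes above 0 and a median of 0.19 (range 0.11 to 0.24), led by Atp5d, the delta subunit of ATP synthase, at 5.89, 6.07 and 6.70 (0.81), and 52 mitochondrial ribosomal protein genes had a median of 0.07 (range 0.03 to 0.16). At level, neither of these last lists had a gene past 2-fold. Mrps14, of the mitochondrial ribosome, fell under the minimum on the 2.5 Gy array (5.80, 4.25 and 3.88) and so is not counted. At 0.02 Gy the list median was 0.24 for complex I and 0.20 for mitochondrial protein import. It was 0.21 for complexes II to V and 0.22 for the mitochondrial ribosomal protein genes. In each of these lists the 0.02 Gy median was as high as the 2.5 Gy median or higher. The small rise of these lists was thus not particular to 2.5 Gy.

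Proteins that act on messenger RNA with AU-rich elements were led by Zfp36, which encodes tristetraprolin, a protein that brings such transcripts to decay. Its values were 7.28, 7.34 and 9.24, a difference of 1.96 (3.90-fold), with the 0.02 Gy array at the unirradiated level. Its relative Zfp36l2 was at 8.40, 9.0 and 9.19 (0.79). Ago1, an Argonaute protein of small RNA silencing, was at 5.48, 5.99 and 6.22, and Pan2, of the PAN2-PAN3 deadenylase, at 5.28, 6.19 and 6.01. Of 33 genes of RNA decay at level, 26 were above 0, 1 was 2-fold higher and the median was 0.24 (range 0.13 to 0.28). Their median at 0.02 Gy was higher, 0.32. Pnrc2, an adaptor of decapping chosen after its values were seen, was at 6.02, 6.37 and 7.03 (1.01). Splicing factors had a median of 0.27 (range 0.17 to 0.34), with 38 of 44 above 0 and none at 2-fold; the highest were Sf3a3 (5.79, 5.94 and 6.50), a subunit of the U2 particle, and Tra2a (5.44, 6.03 and 6.10), a regulator of exon choice.

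Early transcription factors were split by gene. Bhlhe40, a repressor that also feeds back on the circadian clock, was at 4.65, 4.57 and 6.36 (1.71). Myc, a driver of growth and of exit from dormancy in stem cells, was at 6.06, 6.62 and 7.67 (1.61), and Junb, an AP-1 subunit that restrains stem cell proliferation, at 5.62, 6.15 and 6.90 (1.28). Ier3, an early stress gene, was at 7.26, 7.55 and 8.28 (1.03). The list of 19 at level, these 4 included, had 12 above 0 and none 2-fold lower, with a median of 0.15 (range 0.13 to 0.86). Mxd1, which encodes a partner of Max that opposes Myc at its target genes, was also higher, at 6.05, 5.39 and 7.23 (1.19); it was chosen after its values were seen. On the 0.02 Gy array Mxd1 was the lowest of its 3 readings, while Myc was above its unirradiated value.

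Stem cell transcription factors included 1 gene past 2-fold among 37 at level, with a median of 0.13 (range 0.08 to 0.18). This was Sox4, an HMG-box factor of blood progenitors, at 5.66, 6.16 and 7.04 (1.38). Next were Gfi1b, a repressor that limits cycling of stem cells, at 7.26, 7.51 and 8.04 (0.77), and Runx3 at 5.79, 5.92 and 6.50 (0.71). Gata3 was the lowest, at 5.97, 5.75 and 5.14 (-0.83). Mecom, needed for long-term stem cells, was at 5.73, 6.22 and 6.12, Gata2 at 6.72, 6.86 and 6.55, and Procr, the protein C receptor, at 5.50, 5.45 and 5.43, and on the 2.5 Gy array all 3 were within 0.4 of their unirradiated values. Of the stem cell markers, Ly6e, a GPI-anchored surface protein of the Ly6 family, was the only one at 2-fold, at 7.83, 8.56 and 8.91 (1.08).

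The cell cycle lists had medians near 0, and single genes stood apart. In G1, Cdk6, the cyclin D partner whose level sets how fast stem cells leave quiescence, was at 6.01, 6.73 and 7.17 (1.17), and Hdac1 at 5.24, 5.20 and 6.13 (0.90), whereas Btg3, an antiproliferative gene, was at 6.22, 5.58 and 5.57 (-0.66). The list of 27 had a median of -0.01 (range -0.05 to 0.04, the latter after median centring). Ccni, which encodes cyclin I, was at 7.41, 7.91 and 8.73 (1.32) and Cables2, a relative of the Cdk-binding Cables1, at 4.75, 6.21 and 6.16 (1.41). Cables2 was thus as high on the 0.02 Gy array; Ccni was chosen after its values were seen.

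Fbxo5 stood lowest among 38 genes of G2 and mitosis, at 6.63, 7.29 and 5.61 (-1.03). It encodes EMI1, the inhibitor that holds the anaphase-promoting complex off through S and G2 phase. Of the 38 genes 16 were above 0 and the median was -0.04 (range -0.08 to 0.00, above 0 only after median centring). Smc2, a condensin subunit, was at 5.90, 6.19 and 5.43 (-0.47), Tpx2, a spindle assembly factor, at 5.40, 5.70 and 4.96 (-0.44), and Ccna2, cyclin A2, at 6.29, 6.14 and 6.75 (0.46). Among 38 replication genes the median was 0.03 (range -0.00 to 0.07). Slbp, which binds the stem-loop of histone messages, was highest at 6.10, 6.21 and 6.89 (0.79), and E2f1 was lowest at 5.87, 5.66 and 5.43 (-0.44).

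Histone genes had 5 of 14 at least 2-fold higher and 11 above 0, with a median of 0.45 (range 0.14 to 0.49); the lowest value is that with no level minimum. Over all 19 histone genes at level, picked by symbol and not by the list, 5 were 2-fold higher and the median was lower, 0.36. Over all genes, 0.94% were 2-fold higher. The 5 were H4c9 (5.52, 6.25 and 7.15), H2ac20 (6.29, 7.94 and 7.87), H1f2 (4.76, 4.99 and 6.10), H2bc7 (5.03, 7.53 and 6.19) and H2bc8 (5.0, 4.52 and 6.15). H2bc7 and H2bc8 lie next to each other in the histone cluster and pointed opposite ways on the 0.02 Gy array. Histone genes are near-identical copies of each other, so a probe set can take signal from several, and each of these values is uncertain as that of 1 gene. H2bc15, a further H2B gene, was at 7.68, 8.22 and 6.97 (-0.71); H2bc8 and H2bc15 were chosen after their values were seen.

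Genes of sterol and fatty acid synthesis were among the lists with the highest medians on the deposited values: 21 of 27 were above 0, 9 were at least 1.5-fold and 2 at least 2-fold higher, and the median was 0.39 (range 0.26 to 0.44), beside 0.03 for all genes. Hmgcs1, which makes the precursor of mevalonate, was at 5.87, 6.01 and 7.06 (1.19). Scd2, a stearoyl-CoA desaturase, was at 5.42, 6.52 and 6.45 (1.03), already as high on the 0.02 Gy array. Dhcr7, the last enzyme of cholesterol synthesis, was at 4.67, 5.08 and 5.61 (0.94), and Msmo1, a sterol oxidase, at 5.87, 6.22 and 6.77 (0.90). No gene of the list was 1.5-fold lower. At 0.02 Gy the list's median was 0.14. Pnpla2, the lipase that opens triglyceride stores, was at 5.55, 6.65 and 6.79 (1.24) and B4galt5, which makes lactosylceramide, at 5.30, 4.96 and 6.60 (1.30); both were chosen after their values were seen.

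Oxidative stress genes were spread in both directions. Nfe2l2, which encodes the antioxidant regulator NRF2, was at 7.18, 7.67 and 8.38 (1.21), and Sqstm1, which encodes p62, an autophagy receptor that frees NRF2 from KEAP1, at 7.65, 7.80 and 8.80 (1.15). Fth1, ferritin heavy chain, was at 8.64, 8.84 and 9.46 (0.82), and Gstm1, a glutathione transferase with close copies, at 6.99, 7.03 and 6.20 (-0.79). Of 27 genes at level, 20 were above 0, 5 were at least 1.5-fold higher and 2 at least 1.5-fold lower, with a median of 0.28 (range 0.15 to 0.33). For Nfe2l2, Sqstm1 and Fth1 the 0.02 Gy reading was nearer to the unirradiated than to the 2.5 Gy reading.

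In the amino acid and integrated stress response, 2 of 23 genes were 2-fold higher and the median was 0.09 (range 0.04 to 0.14). Slc38a2, the neutral amino acid carrier SNAT2, was at 6.25, 7.28 and 7.67 (1.43), and Ppp1r15a, which encodes GADD34, the phosphatase subunit that ends eIF2 phosphorylation, at 5.89, 6.54 and 7.0 (1.11). The carriers Slc7a1 (4.82, 5.37 and 5.58) and Slc7a5 (5.08, 5.36 and 5.74) followed. Ddit3, the CHOP factor of that response, was at 7.54, 7.35 and 7.25, and Impact, an inhibitor of the kinase GCN2, at 5.82, 6.95 and 6.98 (1.16); Ddit3 and Impact were chosen after their values were seen.

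Translation had 1 gene past 2-fold on its list of factors. Etf1, which encodes the release factor eRF1, was at 5.0, 5.35 and 6.32 (1.32), and Eif5 at 5.01, 5.97 and 5.91 (0.90). Dph3, needed to make diphthamide on elongation factor 2, was at 5.24, 5.18 and 6.77 (1.53). For 31 initiation and elongation factors the median was 0.13 (range 0.02 to 0.17), and for 35 cytosolic ribosomal proteins it was 0.04 (range -0.05 to 0.09) and turned negative after loess and quantile normalization (-0.04 and -0.05). At 0.02 Gy these lists had medians of 0.24 and 0.17. Within the ribosomal protein list Rps15a (5.58, 5.69 and 6.55) and Rps9 (9.59, 9.48 and 10.41) were higher and Rps13 (6.07, 5.79 and 5.28) lower, each by less than 2-fold. Ribosomal protein genes have many near-identical pseudogenes. Gon7 and Trp53rka both belong to the KEOPS complex, which modifies transfer RNA. Gon7 was at 4.83, 5.63 and 5.96 (1.13), and Trp53rka, which has a close copy and so is uncertain, was the lowest gene outside the families, at 6.02, 5.30 and 4.64 (-1.38). Gon7 was chosen after its values were seen.

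Protein folding and breakdown were led by 1 gene each. Hspa8, the constitutive HSC70 chaperone, was at 6.47, 8.14 and 8.16 (1.69), within 0.02 on both irradiated arrays. No other heat shock gene of 39 reached 2-fold, Dnaja2, Hsbp1 and Cct7 followed at 0.71, 0.69 and 0.69, and the list's median was 0.13 (range 0.01 to 0.19). Psmc1, an ATPase of the proteasome cap, was at 5.75, 6.90 and 6.91 (1.16), and Psmd8 at 6.67, 7.42 and 7.62 (0.95), while Psme2, of the interferon-induced activator, was at 6.51, 7.31 and 5.79 (-0.72). The 37 proteasome genes had a median of 0.17 (range 0.04 to 0.21). Ube2d2a, a ubiquitin-conjugating enzyme that works with many ligases, was at 7.17, 8.08 and 8.31 (1.14). In the unfolded protein response Hspa5, the ER chaperone BiP, was at 6.64, 6.65 and 7.31 (0.67) and Sdf2l1 at 5.76, 5.24 and 5.03 (-0.73); none of 27 genes at level reached 2-fold.

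A further 6 of the higher genes on no functional list are given here, chosen after their values were seen. The small GTPases Rab20 (4.94, 5.10 and 6.16), Rab8a (4.79, 4.41 and 5.94) and Sar1a (6.15, 6.56 and 7.22) were 1.21, 1.15 and 1.07 higher, and Vps37b, of the ESCRT-I sorting complex, 1.14 higher (6.28, 6.45 and 7.43). Clic1, a chloride intracellular channel protein, was at 6.58, 6.91 and 7.84 (1.26) and Lcp1, the actin bundler of blood cells, at 5.43, 6.11 and 6.54 (1.11). Actb, often used as a reference for equal loading, was at 9.22, 9.34 and 10.21, just under 2-fold higher (0.99), whereas B2m, beta-2 microglobulin, was at 11.92, 12.28 and 12.12 (0.20).

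Other genes among the 20 highest have less defined roles here. Glipr1, a secreted protein of the CAP family, was at 8.03, 8.59 and 9.62 (1.59). Ivns1abp, a Kelch protein named for its binding to an influenza protein, was at 6.86, 7.59 and 8.42 (1.57). Mettl7a3, which has close copies and so is uncertain, was at 5.81, 5.0 and 7.61 (1.79). In all, 13 of the 78 higher genes outside families were on the p53 or the NF-kB list and 65 on neither. Those lists are short, with 22 and 24 genes at level among the 10854. Of the 78, 36 were on a functional list and 42 on none, and the matching share of all genes is not given. The lists do not hold every target of a pathway, so these counts do not place a gene outside it.

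**Figure D3:**
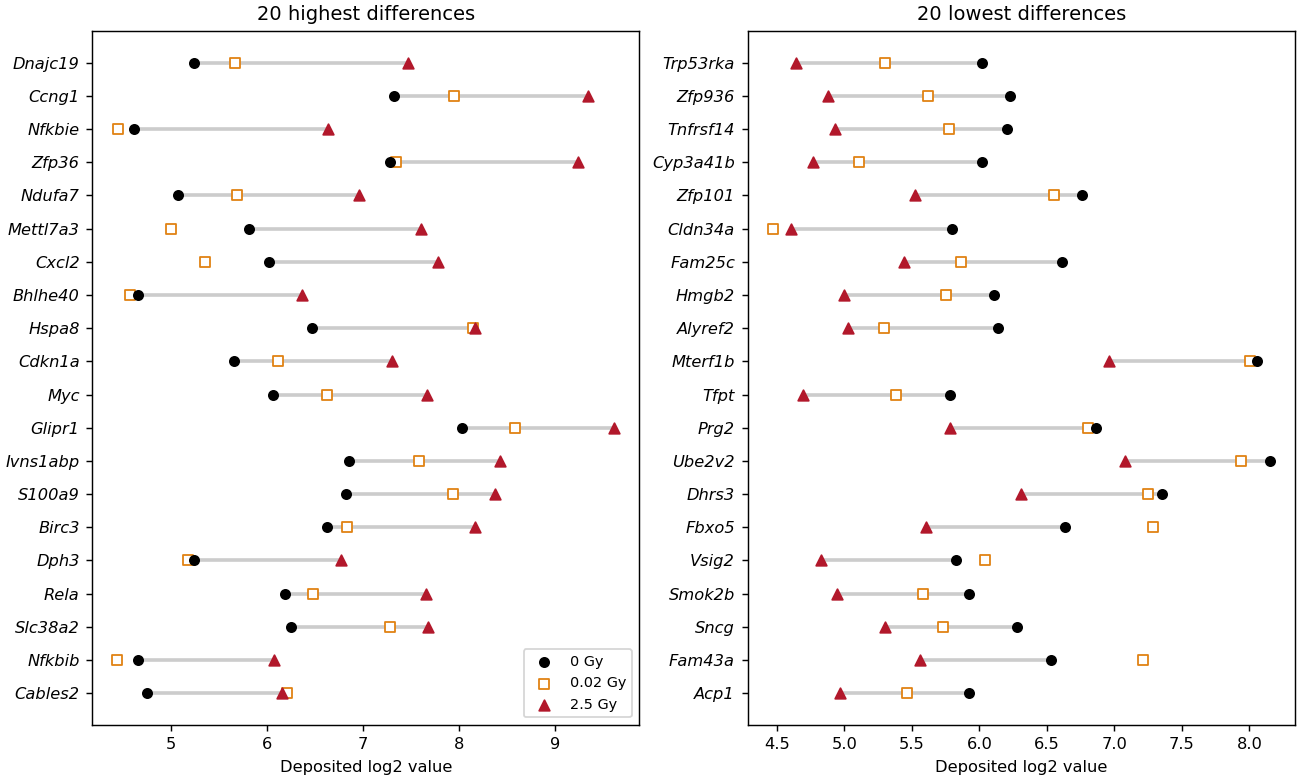
Deposited log2 values of the 20 genes with the highest (left) and the 20 with the lowest (right) differences outside families, on the unirradiated (circles), 0.02 Gy (squares) and 2.5 Gy (triangles) arrays; the grey line joins the unirradiated and 2.5 Gy values. The 0.02 Gy value of Hspa8 (8.14) and of Cables2 (6.21) lies at the 2.5 Gy value, whereas for Zfp36 (7.34) and Bhlhe40 (4.57) it lies at the unirradiated value.

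For comparison, the 24 NF-kB signalling genes at level had 23 above 0, 10 at least 2-fold higher and a median of 0.84 (range 0.40 to 1.05), the highest of the 45 functional lists. The lowest value is that with no level minimum and the highest that with the higher one. The inhibitors Nfkbie (4.62, 4.44 and 6.63), Nfkbib (4.65, 4.44 and 6.08) and Nfkbia (7.07, 7.08 and 8.46) and the subunit Rela (6.18, 6.48 and 7.66) had 0.02 Gy values within 0.3 of the unirradiated ones. Cxcl2, on the same list, was at 6.02, 5.36 and 7.78, so its 0.02 Gy value lay further from the unirradiated one. Over the list the 0.02 Gy median was -0.05, and over the p53 targets given next it was 0.06. The 22 p53 targets at level had 3 genes past 2-fold and a median of 0.28 (range 0.29 to 0.55 under the other treatments); among them Ccng1, cyclin G1, was at 7.32, 7.95 and 9.34, Cdkn1a, which encodes p21, at 5.65, 6.12 and 7.30, and Mdm2, the ubiquitin ligase of p53, at 5.29, 5.23 and 6.56. Ddias, an inhibitor of apoptosis after DNA damage that was chosen after its values were seen, was at 4.70, 5.16 and 5.90 (1.20).

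Genes of DNA repair had medians near that of all genes. Of 24 genes of double-strand break signalling and repair at level none was 2-fold higher or lower, and the median was 0.04 (range -0.08 to 0.09), turning to -0.01 after loess. H2ax, the histone variant phosphorylated at breaks, was at 5.03, 5.83 and 5.95 (0.92), Atrip, the partner of ATR, at 5.02, 5.68 and 5.93 (0.90), and Topbp1, an activator of ATR, at 6.19, 6.43 and 5.73 (-0.46). Of 27 excision and mismatch repair genes, Smug1, a uracil glycosylase, was at 5.53, 4.63 and 4.80 (-0.73) and Apex1, the main abasic site nuclease, at 5.45, 5.76 and 6.12 (0.66). Among 27 genes of the BCL2 family and caspases none reached 2-fold; Bcl2 was at 6.49, 7.26 and 7.03 and Apaf1, the scaffold of the apoptosome, at 4.72, 4.53 and 5.25.

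Interferon-stimulated genes had the lowest median of the 45 functional lists on the deposited values, -0.08 (range -0.10 to -0.03), with 14 of 34 above 0; after loess and quantile normalization that of complex I was lower. At 0.02 Gy the interferon list had a median of 0.22. Xaf1 was at 7.02, 7.26 and 6.39 (-0.63) and Gbp2, a guanylate-binding protein, at 6.86, 6.50 and 6.21 (-0.65). Ifi47, a GTPase induced by interferon gamma, was by contrast at 5.70, 6.96 and 6.77 (1.07). Toll-like and TNF receptors and their adaptors had a median of -0.03 (range -0.03 to 0.33), which turned to 0.02 after median centring and to 0.33 with the higher minimum. Tnfrsf14, the receptor HVEM, was the lowest of them at 6.20, 5.78 and 4.93 (-1.27), and Tlr4, the receptor for lipopolysaccharide, was at 5.85, 6.43 and 5.14 (-0.71).

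Receptors and surface genes of stem cells held no gene past 2-fold among 34 at level, with a median of 0.10 (range -0.00 to 0.15). Il6st, the shared signal subunit of the interleukin 6 receptor family, was at 5.02, 6.01 and 5.91 (0.89), and Ifngr1, a chain of the interferon gamma receptor, at 5.51, 5.84 and 6.28 (0.77). In niche adhesion and homing, Icam2 was at 5.46, 5.85 and 6.15 (0.69) and Itga4, a chain of the integrin VLA-4, at 5.30, 5.85 and 4.83 (-0.47). Among brakes of signalling, Rgs1, a regulator of G protein signals, was at 6.28, 7.03 and 7.24 (0.96), Dusp16, a phosphatase of stress kinases, at 5.52, 5.43 and 6.31 (0.78), and Socs4 at 5.46, 5.01 and 4.92 (-0.54); that list's median was near 0. Classical antigen presentation was led by H2-D1 (10.20, 10.77 and 10.89), a class I gene with close relatives, with 10 of 16 genes above 0 (62.5%).

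Genes of general RNA and protein supply had small medians and, at level, no gene past 2-fold. Of 43 genes of ribosome biogenesis 31 were above 0 (median 0.13, range 0.09 to 0.18), from Mybbp1a, a nucleolar protein, at 5.78, 6.12 and 6.66 (0.88) to Dimt1, an rRNA methyltransferase, at 5.76, 4.62 and 4.93 (-0.83). Of 50 genes of Mediator and RNA polymerase II 34 were above 0 (median 0.13, range 0.05 to 0.18), with Med1 highest at 5.08, 5.30 and 5.77. Of 43 nuclear pore and transport genes 27 were above 0 (median 0.11, range 0.08 to 0.16), with Sec13 highest at 6.23, 6.95 and 7.02. Aminoacyl-tRNA synthetases had a median of 0.02 (range -0.06 to 0.07), with Kars, for lysine, at 4.97, 5.47 and 5.77 (0.80). Lysosome and autophagy genes had 16 of 30 above 0 (53.3%), near the 54.1% of all genes, with Ulk1, the kinase that starts autophagy, highest at 5.90, 6.30 and 6.71 (0.81).

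**Figure D4:**
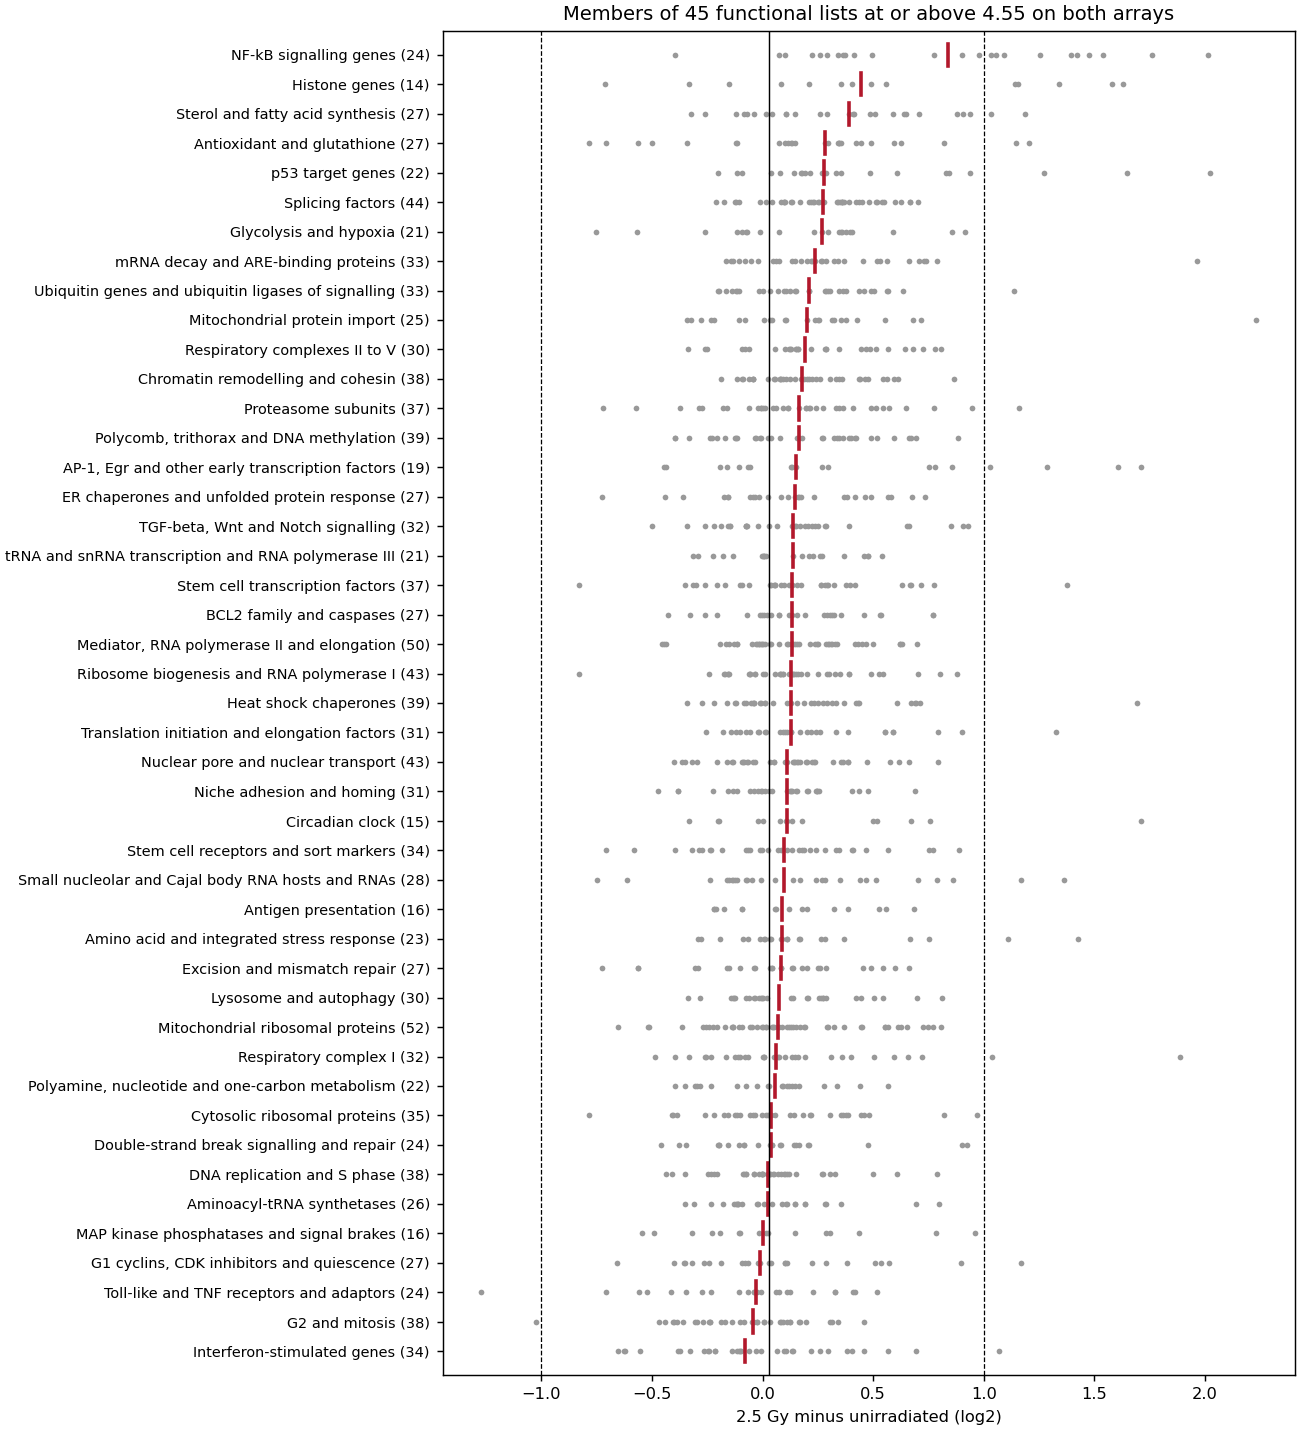
Difference between the 2.5 Gy and unirradiated arrays (log2) for each gene that reached the minimum on both arrays (points) in 45 functional lists, with the list's median as a vertical bar, the number of genes in brackets, the median of all genes (0.03) as a solid line and 2-fold as dashed lines. NF-kB signalling (0.84), histone genes (0.45) and sterol and fatty acid synthesis (0.39) have the highest list medians on the deposited values and interferon-stimulated genes (-0.08) the lowest. Over all 19 histone genes at level the median is 0.36, under that of the sterol list. Medians under about 0.1 can change sign after loess or quantile normalization, as for complex I.

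The 15 lower genes outside the families included 2 of the functional lists, Tnfrsf14 and Fbxo5. Hmgb2, a chromatin protein that bends DNA and is high in dividing cells, was at 6.11, 5.75 and 5.0 (-1.11). Ube2v2, which helps UBC13 build the ubiquitin chains of DNA damage tolerance, was at 8.15, 7.94 and 7.08 (-1.07), and Tfpt, a subunit of the INO80 remodeller, at 5.78, 5.38 and 4.69 (-1.09). In each of these 3 genes the 0.02 Gy reading lay between the others.

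The other lower genes covered metabolism and transcription. Dhrs3, which turns retinal back to retinol, was at 7.35, 7.25 and 6.31 (-1.04). The zinc finger genes Zfp936 (6.23, 5.62 and 4.88) and Zfp101 (6.76, 6.55 and 5.53) were at -1.35 and -1.23, and Prg2, the eosinophil granule protein, at 6.87, 6.80 and 5.79 (-1.08). Mterf1b (8.06, 8.0 and 6.96), Alyref2, Fam25c, Cldn34a and Cyp3a41b complete the set with differences from -1.25 to -1.10, and each of these 5 has close copies in the mouse genome, so their values are uncertain.

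Markers of other cell types were read beside these results. Of 19 matched mature myeloid markers 10 were at level, and S100a9 (6.82, 7.94 and 8.38), S100a8 (5.57, 6.87 and 6.81) and Ly6c2 (4.61, 5.18 and 5.65) were past 2-fold higher. Mpo, myeloperoxidase, was at 5.29, 5.45 and 5.99 (0.70). The genes S100a8 and S100a9, which lie side by side, encode the subunits of calprotectin. Over the whole list the values ran from 3.02 to 6.82 on the unirradiated array (median 4.72) and from 2.73 to 8.38 on the 2.5 Gy array (median 4.73). The neutrophil granule genes Camp (3.02, 3.38 and 2.73), Ngp (4.23, 3.32 and 3.31) and Ltf (4.31, 3.80 and 4.27) were under the minimum on all 3 arrays, and Ly6g was at 5.06, 4.33 and 4.21; these 4 were chosen after their values were seen. In a bulk sample, a gene read lower or higher because of fewer or more cells of a type cannot be told apart from one with less or more RNA per cell, and the part of other cells in the results was not tested.

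The 5 T and NK cell markers at level were all below 0, with a median of -0.20 (range -0.38 to -0.04), led by Nkg7 (6.50, 5.97 and 5.88) and Prf1, perforin (6.32, 5.99 and 5.94). Cd209a, a dendritic cell lectin, was at 5.68, 5.32 and 4.82 (-0.87), while the 10 dendritic cell markers at level had a median of 0.08 (range 0.01 to 0.13). Erythroid, megakaryocyte, endothelial and multipotent progenitor markers held no gene at level past 2-fold, and their medians ran from 0.01 to 0.13; that of the megakaryocyte list turned to -0.08 after loess.

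Promoter sequence was read for the 2-fold genes outside the families, from the RefSeq table of windows from 250 bases before to 50 bases after a start (GRCm38.p6). Of the 78 higher genes 65 were in that table, with 82 promoters. Short patterns used here for an NF-kB site were GGGANTTCC, GGGGNTTCC and GGAANNCCC on either strand. These were in 12 of the 82 (14.6%), against 7.27% of 9558 promoters of all genes outside families. Without the genes of the NF-kB list they were in 8 of 69 (11.6%). Among the 2-fold higher genes of that list, Nfkbie, Tnfaip3, Tnip1 and Nfkb2 held such letters. Nfkbia, Nfkbib, Rela, Birc3, Cxcl2 and Ccl3 did not. The letters TATAAA were in 16 of 82 (19.5%) against 7.38%, and the heat shock letters GAANNTTC in 0 of 82 against 5.52%. The antioxidant letters TGACNNNGC were in 14.6% against 14.3%, and the CCAAT letters in 29.3% against 36.0%. Of 15 promoters of 13 lower genes, 9 (60.0%, from 8 genes) held CCAAT and 4 (26.7%) the heat shock letters, the opposite side from the higher genes. Windows of the same gene can overlap, so promoters are not separate readings. On the opposite strand the last of the NF-kB patterns covers the other ones, so the search amounts to a single loose pattern. A match is a description of letters and not of binding, and no match says only that the letters are not in the window.

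Stretches of 100 bases before the start are shown for Dnajc19, the highest gene, and for 6 higher genes with NF-kB letters, of which Nfkbie is on the NF-kB list and the others (a stress phosphatase, a sterol enzyme, a channel protein, the calcium uniporter and a lipase) are not. Capitals mark the NF-kB letters, or TATAAA in Dnajc19, and each stretch is written 5′ to 3′ on the gene's strand.
Dnajc19, chr3:34081459-34081558, minus strand: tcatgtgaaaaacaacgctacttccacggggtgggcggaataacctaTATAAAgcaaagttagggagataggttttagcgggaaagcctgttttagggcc
Nfkbie, chr17:45555549-45555648, plus strand: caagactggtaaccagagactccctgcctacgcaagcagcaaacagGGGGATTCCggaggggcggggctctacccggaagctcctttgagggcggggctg
Ppp1r15a, chr7:45526269-45526368, minus strand: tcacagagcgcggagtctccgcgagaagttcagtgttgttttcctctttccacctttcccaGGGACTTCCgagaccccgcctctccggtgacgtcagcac
Hmgcs1, chr13:119690232-119690331, plus strand: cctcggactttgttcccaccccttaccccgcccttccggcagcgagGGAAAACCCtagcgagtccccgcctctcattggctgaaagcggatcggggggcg
Clic1, chr17:35050021-35050120, plus strand: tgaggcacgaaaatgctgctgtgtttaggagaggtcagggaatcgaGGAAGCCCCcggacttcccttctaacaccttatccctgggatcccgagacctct
Mcu, chr10:59616741-59616840, minus strand: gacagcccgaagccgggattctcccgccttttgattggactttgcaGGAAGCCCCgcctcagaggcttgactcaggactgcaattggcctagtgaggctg
Pnpla2, chr7:141454980-141455079, plus strand: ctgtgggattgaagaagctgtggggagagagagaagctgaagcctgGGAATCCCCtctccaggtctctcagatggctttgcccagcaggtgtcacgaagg
The capitals begin 105 bases before the start in Nfkbie, 39 in Ppp1r15a, 73 in Hmgcs1, 176 in Clic1, 102 in Mcu, 162 in Pnpla2 and 157 in Dnajc19.

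Kinds of genes with short or repeated sequence had more extreme readings in both directions. Of 151 microRNA genes at level, 5 (3.31%) were past 2-fold higher and 8 (5.30%) past 2-fold lower, against 0.816% and 0.161% of 9310 other protein-coding genes. Among 193 chemosensory receptor genes, 3 were higher and 8 lower, and among 91 antigen receptor segments 2 and 4. Long non-coding RNA genes had 4 of 617 higher and none lower. A probe set for a microRNA gene reads RNA that spans its hairpin, so none of these values is a level of the mature microRNA.

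Of the 13 microRNA genes past 2-fold, 12 have mature sequences in the RefSeq table (19 sequences, with 19 distinct seeds, so no seed is shared); Mir1927 is named only. The gene with the largest difference in each direction is shown, with the seed, bases 2 to 8, in capitals.
miR-505-3p, chrX:60394416-60394437, minus strand: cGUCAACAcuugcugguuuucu
miR-505-5p, chrX:60394451-60394473, minus strand: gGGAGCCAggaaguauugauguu
miR-202-3p, chr7:139957695-139957716, minus strand: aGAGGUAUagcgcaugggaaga
miR-202-5p, chr7:139957732-139957752, minus strand: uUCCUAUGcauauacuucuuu
The Mir505 probe set was at 5.33, 5.32 and 7.53 (2.20) and Mir202 at 6.62, 7.10 and 4.69 (-1.93), and in both the 0.02 Gy array was on the side of the unirradiated one. Mir365-1 (6.34, 4.24 and 4.64) and Mir205 (6.76, 4.08 and 5.07) were instead lower on both irradiated arrays. These 4 were chosen after their values were seen.

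Small nucleolar and Cajal body RNAs and their host genes had 2 of 28 at least 2-fold higher and a median of 0.10 (range -0.09 to 0.17), turning to -0.09 after loess. Snhg15, a host of small nucleolar RNA, was at 5.29, 5.93 and 6.66 (1.36) and Scarna13 at 7.0, 8.20 and 8.17 (1.17). Rmrp, the RNA of the RNase MRP complex, was at 9.23, 9.72 and 10.09 (0.86).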

How the data were processed

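RNA from 3 cultures, 1 per dose, was hybridised to Affymetrix whole-transcript arrays as biotin-labelled target, per the labels' protocols. The values used are the authors' deposited log2 values, 1 for each of 25206 probe sets and array. Partek is named without version or role, per the submitters' processing notes; how background, normalization and summarisation were handled is not given in the sources used here. No scanner files were used, so detection of single probe sets could not be judged. Symbols were looked up by Entrez gene ID in the RefSeq gene table, with the platform's symbol where that table had none. This gave 23185 probe sets 1 symbol and 2021 none. Genes at or above the level minimum, 4.55 on the log2 scale, on both arrays were kept. Withheld items are not reported here. With 1 array a dose no model was fitted, and precision is limited by that number of arrays.

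The members and lists were chosen with earlier results of these data known. There were 45 functional and 10 marker lists, and 1841 of their 1996 symbols were found, 4 by an older name. Named by rule were the 20 highest and 20 lowest differences outside families and predicted genes (set by symbol and gene type), the 4 largest differences in each list, the 10 genes furthest across the minimum in each direction, and a few fixed genes; others are marked. Differences, counts and medians were computed with Python 3.11.15, pandas 2.3.3 and, for loess (span 0.3), statsmodels 0.14.6, and the counting step was tested on simulated data. Alternatives were other level minimums, folds of 1.5 and 3, quantile normalization, median centring, loess and leaving families out. Motifs were searched as exact letters on both strands.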

Additional observations from a re-analysis of the deposited data

Results flagged for a closer look

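Of the 2021 probe sets with no gene symbol in the annotation used, 1017 reached the level minimum on both arrays. Among these, 15 (1.47%) were at least 2-fold higher on the 2.5 Gy array than on the unirradiated array, and 2 (0.197%) at least 2-fold lower, beside 0.94% and 0.369% of named genes. They stand outside every gene comparison above because they lack a symbol; whether they share sequence with named genes was not tested.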

How the results depend on the processing

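No paired analysis was possible because the design has 1 array a dose. The counts of genes at least 2-fold higher and lower (102 and 40) followed the genes admitted: 218 and 148 with no level minimum, 58 and 8 with both arrays at or above the 75th percentile (5.47), and 137 and 70 where the mean of both arrays had to reach the level minimum. They were 613 and 291 at 1.5-fold and 19 and 10 at 3-fold. With families and predicted genes left out, 78 were higher and 15 lower; quantile normalization gave 82 and 55, median centring 121 and 36 and loess 81 and 52. Among named genes past 2-fold (60), 9 dropped under it after loess, 8 after quantile normalization and 2 after median centring, and none of the 242 differences checked moved by more than the robust spread of all genes. Of 53 list medians, 8 moved by over 0.1 after loess, 15 after quantile normalization, 16 with the 75th percentile minimum, 9 with no minimum and 0 after median centring, and 6, 7, 6, 5 and 4 of them changed sign. The size of array-to-array noise is unknown without replicates, so no count above can be set against it.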

Other observations

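Some genes outside the comparison crossed the level minimum between the arrays and are given by level only. Outside families, 536 genes were under it on the unirradiated array only, 30 of them at least 2-fold higher at 2.5 Gy, and 806 were under it on the 2.5 Gy array only, 14 of them at least 2-fold lower. Cd69, an early activation marker of blood cells, was at 3.99, 3.63 and 6.01 (unirradiated, 0.02 Gy and 2.5 Gy). Hamp, which encodes the iron hormone hepcidin, was at 2.84, 5.05 and 5.15, and Scarna2, a Cajal body RNA, at 3.72, 6.39 and 6.86, so both were near their 2.5 Gy value at the low dose. Sms, which encodes spermine synthase, was at 3.16, 6.47 and 4.98. In the other direction, Mis12, a kinetochore subunit, was at 4.71, 4.72 and 3.56, Socs6, a suppressor of cytokine signalling, at 5.22, 5.52 and 3.71, and Mrps14, of the mitochondrial ribosome, at 5.80, 4.25 and 3.88.

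Among metabolic and signalling genes, Vegfa, the vascular growth factor, was at 6.34, 6.48 and 7.20 and Aldoc, an aldolase, at 4.91, 5.47 and 5.83, while Pfkfb3, which sets the pace of glycolysis, was at 5.47, 4.73 and 4.72. Of 21 genes of glycolysis and hypoxia 13 were higher at 2.5 Gy, with a median difference of 0.27; this was 0.11 after loess and after quantile normalization and 0.03 with no level minimum, and the 0.02 Gy array had a median of 0.24. In TGF-beta, Wnt and Notch signalling, Gsk3b (5.38, 6.22 and 6.31), Ctnnb1 (6.01, 6.67 and 6.92) and Smad2 (4.57, 4.98 and 5.42) were the highest, at 1.90-fold, 1.87-fold and 1.80-fold, and the median of 32 genes was 0.14 (0.05 after loess, 0.00 with no level minimum).

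Among chromatin genes, Pbrm1, a subunit of a SWI/SNF remodeller, was at 4.94, 6.09 and 5.81, Rnf2, the ubiquitin ligase of Polycomb, at 5.33, 6.30 and 6.21, and Kmt2a, a histone methyltransferase needed by stem cells, at 6.41, 6.89 and 7.08. Of 38 remodelling and cohesin genes 30 were higher at 2.5 Gy (median 0.18), and of 39 Polycomb, trithorax and DNA methylation genes 25 were (median 0.16); neither list held a gene past 2-fold among those at the level minimum. Among the genes at least 2-fold higher, 3 pairs were direct neighbours in the genome: H2bc7 with H2bc8, S100a8 with S100a9, and Ddias with 4632427E13Rik.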
